A study of Mus musculus with 24 samples.

Results

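The comparison set 6 mouse retinal organoids (MROs) collected on day 30 of differentiation (D30) against 6 collected on day 20 (D20), over all annotated genes. The members were chosen by the sampling day in the sample labels, which gave 12 of the 24 organoids sequenced. MROs are aggregates of retinal tissue grown in suspension from pluripotent cells. All were differentiated from E14Tg2a, a wild-type mouse embryonic stem cell line, and carried the genotype label Control. The labels name water as the sole addition, while the study's methods add Matrigel at the start, trisection of the organoids and serum from D10, and the retinoid analogue EC23 from D10 to D14. The titles mark the D22, D25 and D30 organoids as Ctrl and leave the D20 organoids without this mark; no other label but the day separates the groups. Each library held the total RNA of 1 whole organoid after removal of ribosomal RNA. The remaining 12 organoids, 6 at D22 and 6 at D25, shared the model fit and entered the last comparison below. All organoids came from 1 independent experiment, and p-values measure the spread between organoids of that experiment.

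In the mouse retina, progenitor cells leave the cell cycle around the first days after birth, and rods, bipolar neurons and Müller glia are the last cells to be born. Rods then assemble an outer segment, a modified cilium filled with membrane discs in which a photon activates transducin and phosphodiesterase and thereby closes a cyclic nucleotide-gated channel. Their terminals form ribbon synapses onto bipolar neurons, while Müller glia span the tissue, buffer ions and become reactive upon damage.

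Reads counted on features ranged from 13634846 to 15793703 per organoid at D20 and from 15814895 to 19477108 at D30. At this depth, a floor of 3 counts lay between 0.154 and 0.220 CPM (counts scaled to a fixed total per library), which covers counting error only. Reads that fell outside every feature made up 44.1% to 46.7% of the reads counted, outside or ambiguous between features at D20 and 37.5% to 43.9% at D30. Pairs of organoids from different days lay 145 apart on average (Euclidean distance over the tested annotated genes on the scale log2(CPM + 0.5), range 126 to 165), and pairs of the same day 72.0 at D20 and 79.2 at D30. No library repeated another, since every same-day pair differed by at least 6.53 times what counting noise alone gives (chi-square divided by its degrees of freedom, 30 pairs). D30 organoid 6 stood apart, with a mean distance of 98.6 to the other D30 organoids against 69.6 to 79.0 for these. Its values are given beside some of the groups in which it differed.

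The library kit kept the strand, but the sources used here do not state whether the counting did. Among the 124 genes given with values here, 50 share part of their span with another annotated gene, 39 of them with a gene on the opposite strand, and the counts of these genes are uncertain to that extent. Reads that align to several places were not counted, which lowers genes with near-identical copies, such as those of ribosomal proteins and histones. The mitochondrial genome gives no information, since all 37 of its listed genes stand at 0 in all 12 organoids.

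Nearly all tested genes of rod phototransduction, the outer segment and the photoreceptor ribbon synapse rose from D20 to D30. All tested members of the rod phototransduction list were higher at the later day. Genes of Müller glia, bipolar neurons and receptors for neurotransmitters rose for the most part. Genes of progenitors, of mitosis and of the cytosolic ribosome fell, most of them in every D30 organoid relative to every D20 organoid. Transcription factors of photoreceptors and cone, amacrine, horizontal and ganglion cell genes moved in both directions. Of the 46603 annotated genes listed, 16253 passed the filter on low counts and were tested. At D30, 4078 of these were higher (25.1%) and 2712 lower (16.7%) than at D20, which made 6790 genes or 41.8% (quasi-likelihood test of edgeR, at an adjusted p below 0.01). A change of at least 2-fold was met by 2324 of the higher (14.3%) and 1281 of the lower genes (7.88%), and a change of at least 16-fold by 213 and 30. The median log2 fold change over all tested genes was 0.10, with quartiles of -0.37 and 0.64. All 6 organoids of D30 lay above all 6 of D20 for 2686 of the higher genes, and below them for 1998 of the lower genes. With annotated genes alone in the normalization, the fit and the adjustment, 51.5% of the genes that passed were higher, against 60.1% here and 65.7% with the size factors of DESeq2. Where 0 tested members of a list are given below as rising or falling, the number was also 0 at an unadjusted p below 0.05 and by DESeq2, unless another number stands beside it. These organoids are bulk samples, in which more cells of a type and more RNA per cell cannot be told apart.

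**Figure D1:**
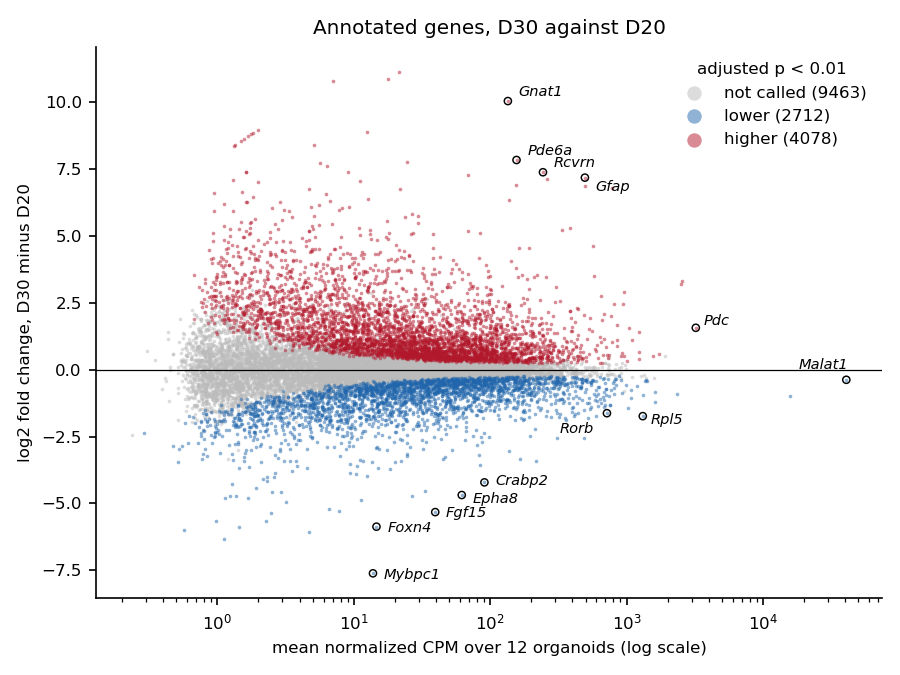
Log2 fold change of each tested annotated gene between D20 and D30 against its mean normalized CPM over the 12 organoids (log axis). Red points are the 4078 genes higher and blue points the 2712 genes lower at D30 at an adjusted p below 0.01, and the rises reach further from 0 than the falls.

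Genes of rod phototransduction rose together. All 19 tested members of this list (20 listed) passed the test upward, with a median log2 fold change of 3.45 beside 0.10 over all tested genes. The levels are given from here on as the lowest, median and highest normalized CPM among the 6 organoids of a day. Summed over the list, they were 1952, 3379 and 3569 CPM at D20 and 11958, 17851 and 23498 CPM at D30. No D20 organoid reached the lowest D30 sum. The ± beside a log2 fold change or difference is its absolute value divided by the square root of the test's F statistic. It is an approximate standard error and not a spread between organoids. For genes near 0 on a day, leaving out 1 organoid can shift the value by more. Gnat1 (ENSMUSG00000034837, chromosome 9 from 107674474 to 107679712 of GRCm38), the alpha subunit of rod transducin, stood at 0, 0.0990 and 0.792 CPM at D20 and 199.6, 273 and 323 CPM at D30 (log2 fold change 10.04 ± 0.46, adjusted p = 2.73e-16, and 10.86 without D20 organoid 4). Pde6a, a catalytic subunit of the rod phosphodiesterase, was at 0.839, 1.36 and 1.79 CPM at D20 and 218, 314 and 422 CPM at D30 (log2 fold change 7.84 ± 0.30, adjusted p = 6.88e-18). Recoverin (Rcvrn), a calcium sensor of photoreceptors, went from 1.44, 2.47 and 5.21 CPM to 309.7, 535 and 579.9 CPM (log2 fold change 7.38 ± 0.34, adjusted p = 2.73e-16). For each of these genes every D30 organoid lay above every D20 organoid. The alpha and beta subunits of the rod cyclic nucleotide-gated channel, Cnga1 and Cngb1, were likewise separate. Cnga1 was measured at 0.489, 3.51 and 7.19 CPM at D20 and 336, 523 and 670.5 CPM at D30 (log2 fold change 7.13, adjusted p = 4.08e-14) and Cngb1 at 0.0699, 2.57 and 4.82 CPM at D20 and 202, 328 and 385 CPM at D30 (log2 fold change 6.90, adjusted p = 9.32e-13). Gucy2f, a guanylate cyclase of photoreceptors, had 1 count over all 6 organoids of D20 and 4306 counts at D30, a ratio of 3851 whose 95% counting interval runs from 691 to 152156. Other members had high counts already at D20. Phosducin (Pdc), which binds the beta and gamma subunits of transducin, rose from 1045, 1758 and 1945 CPM to 3035, 4957 and 6413 CPM (log2 fold change 1.56 ± 0.15, adjusted p = 1.77e-09). Rod arrestin (Sag) rose by 3.31 and Gngt1, the gamma subunit of transducin, by 2.90 on the log2 scale, each without overlap between the days.

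To set the promoters of genes that moved together side by side, short motifs were counted on both strands in the RefSeq promoter table, from 250 bases before to 50 bases after each start. The table matched 10909 of the 16173 tested genes with a symbol, through 14008 windows. TAATCC, the core of a site bound by homeodomain factors of the OTX and CRX type, was present in 8 of 14 windows of rod phototransduction genes and in 5.89% of all windows. The share was 7.89% among genes at least 2-fold higher and 5.63% among genes at least 2-fold lower. TGCTGAC, part of a site bound by factors of the MAF and NRL type, was present in 1 of the rod windows and in 3.61% of all. The shares were 4.48% and 4.01% among the higher and lower genes. A match is a run of letters and not a shown binding site, and windows of the same gene can overlap. The 120 bases before the start (5′ to 3′, GRCm38.p6, RefSeq) are printed for 4 members of the rod list, chosen among those that hold the motif there, with each TAATCC or its reverse GGATTA in capitals. They lie at chr8:95306586-95306705 (minus strand), chr6:3993888-3994007 (plus), chr1:87803560-87803679 (plus) and chrX:142196937-142197056 (minus).
Cngb1: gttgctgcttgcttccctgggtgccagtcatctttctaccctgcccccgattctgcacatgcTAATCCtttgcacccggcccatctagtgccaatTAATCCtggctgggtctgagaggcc
Gngt1: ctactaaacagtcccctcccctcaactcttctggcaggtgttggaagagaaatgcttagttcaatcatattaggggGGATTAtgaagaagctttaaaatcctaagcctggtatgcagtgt
Sag: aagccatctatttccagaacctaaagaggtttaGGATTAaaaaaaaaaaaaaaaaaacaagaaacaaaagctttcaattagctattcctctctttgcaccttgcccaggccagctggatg
Gucy2f: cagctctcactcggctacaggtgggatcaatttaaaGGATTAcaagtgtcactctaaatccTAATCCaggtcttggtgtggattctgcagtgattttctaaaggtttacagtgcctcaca

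Genes that build the outer segment and its cilium were higher at D30 as well. This organelle stacks discs around an axoneme, and tetraspanins hold the disc rims. Of 19 tested members, 17 rose and 0 fell (1 at an unadjusted p below 0.05 or with annotated genes alone), with a median log2 fold change of 2.05. The interphotoreceptor matrix proteoglycan Impg1 was at 0.420, 4.46 and 8.90 CPM at D20 and 112, 159 and 209.6 CPM at D30 (log2 fold change 5.11 ± 0.41, adjusted p = 2.11e-11). Prph2 and Rom1, tetraspanins that pair at the disc rim, rose by 3.51 and 3.48 on the log2 scale (adjusted p = 2.07e-13 and 6.45e-10). Rp1, a protein of the photoreceptor axoneme and the member with the highest CPM, was measured at 173, 572 and 648 CPM at D20 and 3244, 4268 and 5951 CPM at D30 (log2 fold change 3.20). All 4 genes were separate between the days. Among 14 tested transcription factors of photoreceptors, 8 rose, 3 fell and 3 did not pass. Esrrb, a nuclear receptor of rods, went from 0, 0.203 and 0.594 CPM to 7.08, 8.88 and 14.1 CPM (log2 fold change 5.27, adjusted p = 4.06e-07), and Samd11, a repressor in photoreceptors, from 8.67, 18.7 and 29.1 CPM to 103, 174 and 234 CPM (log2 fold change 3.08, adjusted p = 7.28e-11). Both were higher in every D30 organoid. The 3 members that fell were Otx2, Prdm1 and Rorb. Rorb, a nuclear receptor also present in progenitors, was at 956, 1109 and 1146 CPM at D20 and 283, 326 and 462 CPM at D30 (log2 fold change -1.63 ± 0.09, adjusted p = 8.76e-15). Every D30 organoid lay below every D20 organoid. Mef2c, a factor of rods and of cortical neurons, varied widely, with 4.34, 9.52 and 56.8 CPM at D20 and 5.49, 139 and 315 CPM at D30. Its rise (log2 fold change 3.03, adjusted p = 0.00513, and 3.90 without D20 organoid 6) did not pass when D20 organoid 1, 2, 3 or 5 or D30 organoid 1, 2 or 4 was left out (adjusted p = 0.01004 to 0.0160). D30 organoid 6 was the lowest of its day, at 5.49 CPM.

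Cone genes moved in both directions. Of 12 tested members (14 listed), 6 rose, 4 fell and 2 did not pass, and their summed level was 411, 612 and 703 CPM at D20 and 551, 810.1 and 998 CPM at D30, with overlap. Opn1sw, the short-wavelength cone opsin, was at 6.81, 9.97 and 24.3 CPM at D20 and 0.587, 1.80 and 2.96 CPM at D30 (log2 fold change -2.88 ± 0.34, adjusted p = 5.24e-08), and every D30 organoid lay below every D20 organoid. Rxrg, Gngt2 and Pde6c also fell. In contrast, Slc24a2, a sodium, calcium and potassium exchanger of cones and other neurons, rose from 1.92, 4.33 and 5.30 CPM to 16.5, 37.9 and 65.7 CPM (log2 fold change 3.23, adjusted p = 1.63e-07). Kcnv2, a potassium channel subunit of rods and cones, rose by 2.17, and Gnb3, a transducin beta subunit shared by cones and ON bipolar neurons, by 1.01 on the log2 scale. These 3 genes were higher in every D30 organoid. Opn1mw, the medium-wavelength opsin, and Pde6h, the inhibitory subunit of the cone phosphodiesterase, had no count at D20 and 21 and 12 counts over all D30 organoids, too few to be tested.

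All 18 tested genes of the photoreceptor ribbon synapse rose (median log2 fold change 1.44), or 17 with annotated genes alone, with D20 and D30 only and without any 1 of D20 organoids 1, 2, 3 and 6 and D30 organoids 1, 4 and 5, where bassoon (Bsn) did not pass. A ribbon tethers synaptic vesicles near calcium channels in photoreceptor and bipolar terminals. Cplx4, a complexin of ribbon synapses, was at 0.979, 3.03 and 5.83 CPM at D20 and 145, 299 and 356 CPM at D30 (log2 fold change 6.32 ± 0.37, adjusted p = 3.37e-14). Cabp4, which binds calcium at the terminal, went from 0.350, 0.931 and 2.37 CPM to 42.0, 56.6 and 80.7 CPM (log2 fold change 5.74, adjusted p = 1.24e-11). Cacna1f, the pore of the calcium channel in photoreceptor terminals, was at 0.0699, 1.17 and 3.27 CPM at D20 and 41.2, 58.8 and 72.5 CPM at D30 (log2 fold change 5.47, adjusted p = 1.95e-11). The days did not overlap for these genes. Dystrophin (Dmd), the member with the highest CPM, rose less, by 1.11 on the log2 scale. Of 20 tested genes of synaptic vesicles and release in general, 13 rose and 2 fell, the latter being Cplx2 and Vamp1. Synaptophysin (Syp), a vesicle protein, was at 166, 233 and 251 CPM at D20 and 636, 915 and 1015 CPM at D30 (log2 fold change 1.92 ± 0.15, adjusted p = 1.94e-11). Synapsins overlapped between the days, with 0.0699, 0.646 and 5.94 CPM at D20 and 2.11, 22.2 and 40.9 CPM at D30 for Syn2 (log2 fold change 3.70, adjusted p = 8.45e-05, and 4.74 without D20 organoid 4) and a log2 fold change of 2.03 for Syn1.

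**Figure D2:**
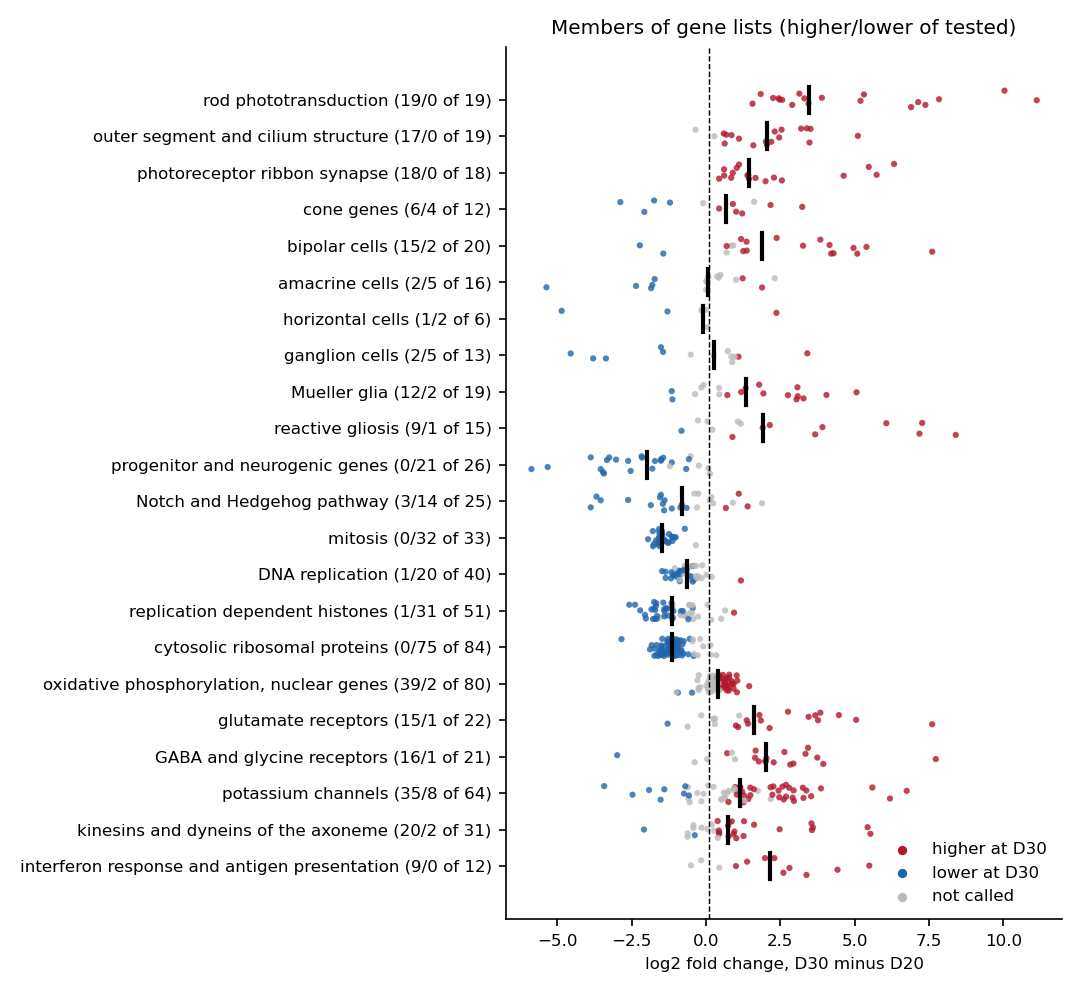
Log2 fold change of each tested member of 22 gene lists between D20 and D30, with red, blue and grey points for members higher, lower and not called, and numbers of higher and lower members of those tested beside each name. Black bars mark list medians and the dashed line the median of 0.10 over all tested genes; the bars of rod, outer segment and ribbon synapse genes lie to the right of it and those of mitosis and progenitor genes to the left.

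Bipolar neuron genes rose for the most part. Of 20 tested bipolar genes, 15 rose and 2 fell (Pcp2 and Tacr3), with a median log2 fold change of 1.87. The metabotropic glutamate receptor of ON bipolar neurons, Grm6, was at 0, 0 and 0.275 CPM at D20 and 5.54, 11.2 and 19.3 CPM at D30 (log2 fold change 7.61 ± 0.74, adjusted p = 1.45e-09, and 9.19 without D20 organoid 3). Vsx1, a transcription factor of cone bipolar neurons, went from 0, 0.300 and 0.427 CPM to 5.99, 10.2 and 19.8 CPM, and the calcium-binding protein Cabp5 from 1.26, 1.88 and 4.03 CPM to 36.2, 78.4 and 104 CPM (log2 fold change 5.09, adjusted p = 1.4e-14). For all 3, the D30 organoids lay above the D20 organoids. Gnao1, which couples Grm6 to its channel, had the highest CPM of the list and overlapped between the days, at 57.8, 73.5 and 102 CPM at D20 and 70.6, 199.8 and 241 CPM at D30, in spite of its log2 fold change of 1.25 (adjusted p = 3.48e-05).

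Of 16 tested amacrine genes (19 listed), 2 rose, 5 fell and 9 did not pass, a share called near that of all tested genes. Their median log2 fold change of 0.05 became -0.04 with annotated genes alone in the fit. Ptf1a, a factor of amacrine fate, was at 3.78, 3.97 and 7.32 CPM at D20 and 0, 0.0612 and 0.333 CPM at D30 (log2 fold change -5.37 ± 0.61, adjusted p = 2.74e-08, and -6.12 without D30 organoid 6) and Barhl2 at 11.7, 19.7 and 23.0 CPM at D20 and 2.14, 3.65 and 6.05 CPM at D30 (log2 fold change -2.35, adjusted p = 2.23e-09), each without overlap. Neurod4, a neurogenic factor that the progenitor list also holds, had the highest CPM and fell by 1.80 on the log2 scale. Gad1, an enzyme of GABA synthesis, rose with overlap, from 4.41, 7.48 and 31.5 CPM to 9.92, 43.7 and 67.3 CPM (log2 fold change 1.88, adjusted p = 0.000804, and 2.57 without D20 organoid 4). Summed amacrine levels were 846, 1216 and 1368 CPM at D20 and 559.5, 700.0 and 772 CPM at D30, and without Neurod4 the medians of the sum were 375 CPM at D20 and 482 CPM at D30.

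Among 6 tested horizontal cell genes, Onecut1 and Onecut2 fell and Calb1 rose. Onecut1, a factor of horizontal cell and cone precursors, was at 15.9, 21.5 and 29.3 CPM at D20 and 0.206, 0.761 and 1.05 CPM at D30 (log2 fold change -4.85 ± 0.33, adjusted p = 7.82e-13), and calbindin (Calb1) at 1.60, 2.44 and 4.81 CPM at D20 and 7.90, 14.3 and 22.0 CPM at D30 (log2 fold change 2.37, adjusted p = 1.47e-06), each without overlap. The sum was 194, 213 and 224 CPM at D20 and 136, 175 and 183 CPM at D30, every D30 organoid below every D20 organoid, and without Onecut1 and Onecut2 its medians were 146 CPM at D20 and 155 CPM at D30. Of 13 tested ganglion cell genes, 2 rose and 5 fell. Gamma-synuclein (Sncg) stood at 32.0, 62.5 and 91.8 CPM at D20 and 1.37, 2.79 and 3.94 CPM at D30 (log2 fold change -4.55 ± 0.31, adjusted p = 6.49e-13). Pou4f2, a transcription factor that defines ganglion cells, went from 3.96, 6.26 and 9.37 CPM to 0.174, 0.353 and 1.11 CPM (log2 fold change -3.80, adjusted p = 2.74e-07). Thy1, a surface protein of many neurons, went the other way, from 0, 1.18 and 5.31 CPM to 1.497, 18.3 and 31.1 CPM (log2 fold change 3.41, adjusted p = 5.88e-05, and 4.17 without D20 organoid 6), with overlap. D30 organoid 6 was the lowest for Thy1 and for the summed ganglion cell genes, at 204 CPM against 454 to 961 CPM in the other D30 organoids and 405, 579 and 688 CPM at D20. Without it, 4 ganglion cell genes rose in place of 2, beside 5 falls.

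Müller glia genes were higher at D30, with 12 of 19 tested members rising, 2 falling (Sox9 and Dkk3) and a median log2 fold change of 1.33. Apolipoprotein E (Apoe), a lipid carrier made by glia, had the highest CPM, at 145, 164 and 202 CPM at D20 and 484, 1119 and 1924 CPM at D30 (log2 fold change 2.76 ± 0.21, adjusted p = 7.8e-12). The water channel Aqp4 was measured at 7.90, 15.95 and 24.2 CPM at D20 and 49.9, 220.2 and 701 CPM at D30 (log2 fold change 4.05, adjusted p = 2.26e-08), and the potassium channel Kcnj10, which buffers potassium, at 3.83, 5.48 and 12.8 CPM at D20 and 20.7, 53.8 and 142 CPM at D30 (log2 fold change 3.28, adjusted p = 9.76e-09). None of these overlapped between the days, but D30 organoids differed several-fold from each other. Genes of reactive gliosis rose in 9 of 15 tested cases and fell in 1 (Nes). Gfap, an intermediate filament protein of reactive glia, varied most, with 0.269, 5.19 and 19.1 CPM at D20 and 114, 644 and 2163 CPM at D30 (log2 fold change 7.18 ± 0.93, adjusted p = 3.04e-07, and 7.83 without D20 organoid 4). Its highest D30 value was 19.03 times its lowest. The growth factor Fgf2 rose from 0.202, 0.890 and 1.56 CPM to 98.7, 139.6 and 179 CPM (log2 fold change 7.27, adjusted p = 1.36e-15), and its span holds 1 other annotated gene on the same strand and 3 on the opposite strand. Endothelin 2 (Edn2) had no count in any D20 organoid and 264 counts at D30. The summed gliosis genes were at 239, 254 and 269.6 CPM at D20 and 721, 1197 and 2847 CPM at D30, and D30 organoid 6 was the lowest of its day for these and for the summed Müller glia genes (2245 CPM against 3065 to 5711 CPM). D30 organoids 1 and 5 were the highest for gliosis genes (2643 and 2847 CPM) and Müller glia genes (5711 and 4762 CPM), and also for the summed mesenchyme genes (159 and 276 CPM) and for metallothionein and antioxidant genes. The part of mesenchyme in the glial rise was not tested.

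**Figure D3:**
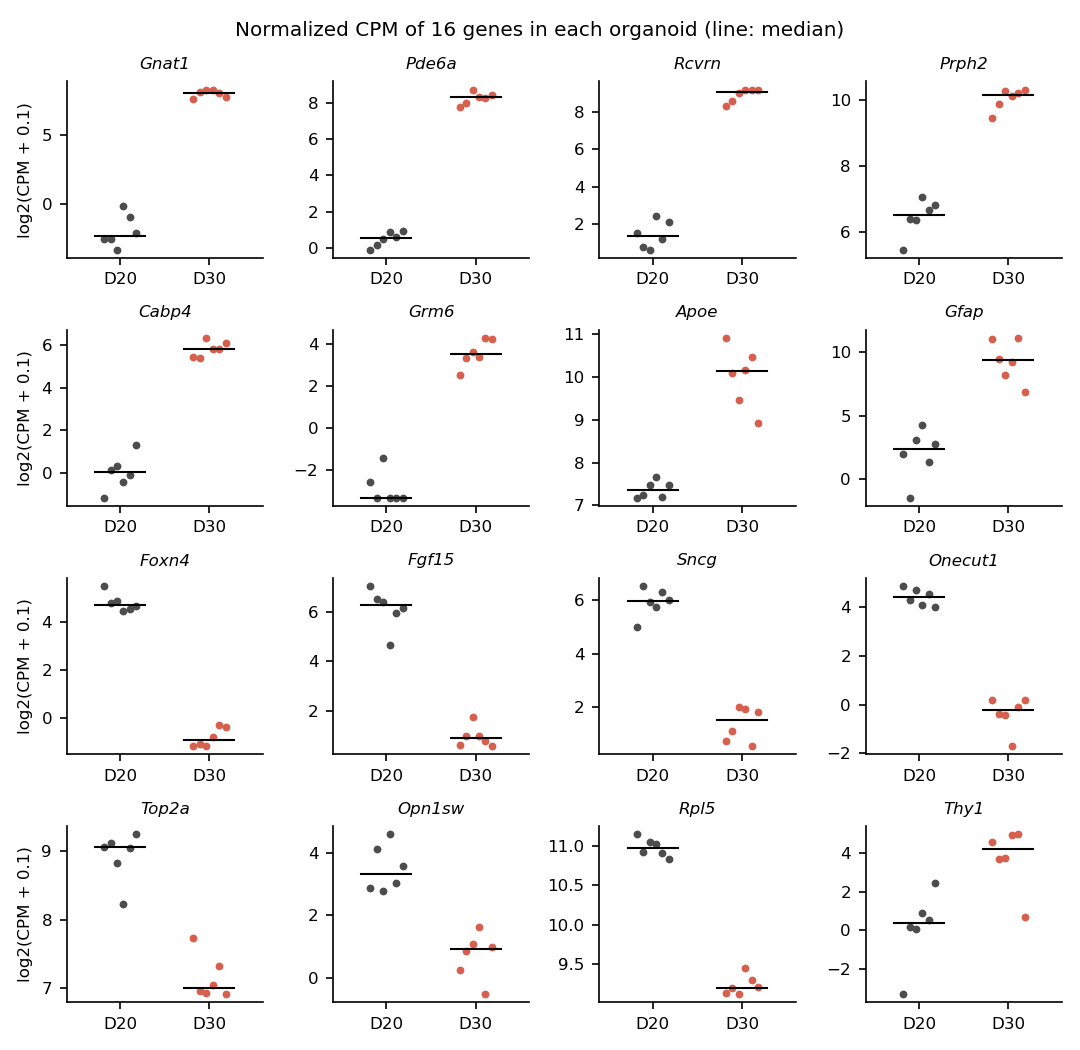
Normalized CPM of 16 genes, as log2(CPM + 0.1), in each of the 6 organoids of D20 (grey) and of D30 (red), with lines at the medians. Among these genes the days overlap only for Thy1, and Thy1 and Gfap spread most among the D30 organoids.

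Genes of progenitors and neurogenesis fell. Of 26 tested members, 21 fell and 0 rose (median log2 fold change -1.98), and their summed level went from 3389.8, 3884 and 4475 CPM to 1063, 1169.8 and 1318 CPM. Foxn4, a factor of amacrine and horizontal competence, was at 21.8, 26.3 and 45.4 CPM at D20 and 0.343, 0.424 and 0.718 CPM at D30 (log2 fold change -5.87 ± 0.36, adjusted p = 5.5e-14). Fgf15, a growth factor of retinal progenitors, stood at 25.3, 77.0 and 131 CPM at D20 and 1.39, 1.74 and 3.30 CPM at D30 (log2 fold change -5.32 ± 0.48, adjusted p = 2.3e-10), and the Notch ligand Dll4 at 14.3, 16.7 and 23.2 CPM at D20 and 0.174, 1.47 and 1.83 CPM at D30 (log2 fold change -3.88, adjusted p = 3.27e-10). For all 3, every D30 organoid lay below every D20 organoid. In the Notch and Hedgehog pathways, which share 4 genes with the progenitor list, 14 of 25 tested members fell and 3 rose (Hey2, Jag1 and Notch2). Heyl, a target of Notch, fell from 6.92, 8.39 and 9.50 CPM to 0.111, 0.606 and 1.24 CPM (log2 fold change -3.68, adjusted p = 9.75e-10), and the ligand Dll3 fell by 3.54 on the log2 scale. Among 15 tested genes of temporal competence, 6 fell and 3 rose, or 5 without D30 organoid 6. The RNA-binding proteins Igf2bp1 and Igf2bp3, which mark early progenitors, fell by 3.33 and 2.33. Lin28a, a blocker of let-7 maturation, was at 0.403, 0.813 and 1.14 CPM at D20 and 4.77, 6.48 and 16.7 CPM at D30 (log2 fold change 3.28, adjusted p = 8.83e-08), above the D20 organoids in all 6, while its paralogue Lin28b fell.

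The mitotic genes fell together. Of 33 tested members, 32 fell, and Racgap1 alone did not pass (median log2 fold change -1.49). Topoisomerase Top2a was at 299.7, 533 and 607 CPM at D20 and 119.7, 128 and 212 CPM at D30 (log2 fold change -1.78 ± 0.26, adjusted p = 2.57e-06), the kinetochore protein Cenpf at 203, 323 and 347 CPM at D20 and 67.4, 85.8 and 114 CPM at D30 (log2 fold change -1.79, adjusted p = 8.89e-07), and the midzone kinesin Kif23 at 38.1, 48.8 and 53.1 CPM at D20 and 9.59, 11.4 and 17.9 CPM at D30 (log2 fold change -1.95, adjusted p = 1.98e-07). The days were separate, and every D30 organoid still had counts of these genes. Among DNA replication genes, 20 of 40 were lower and 1 (Rpa1) was higher, with a median of -0.64. The helicase subunit Mcm7 was at 71.5, 86.7 and 91.1 CPM at D20 and 24.8, 32.1 and 44.1 CPM at D30 (log2 fold change -1.36 ± 0.12, adjusted p = 1.33e-10), and Rrm1, of ribonucleotide reductase, overlapped between the days with a log2 fold change of -0.63 (adjusted p = 0.00098). Whether mitosis and replication genes differ from each other was not tested. Replication-dependent histone genes, many of them near-identical, fell in 31 of 51 cases and rose in 1 (Hist1h2bc), or in 2 without D20 organoid 4, D30 organoid 5 or D30 organoid 6 and 3 by DESeq2, and Hist1h1c, the most abundant, was at 228, 344 and 420.3 CPM at D20 and 90.8, 113 and 175 CPM at D30. Cell cycle brakes showed 5 falls and 0 rises among 11, or 45.5% called beside 41.8% of all tested genes. The rises were 2 at an unadjusted p below 0.05, 1 by DESeq2 and 1 without D30 organoid 6. Cdkn1a, an inhibitor of cyclin-dependent kinases, fell from 17.5, 28.3 and 34.8 CPM to 3.36, 7.50 and 9.98 CPM (log2 fold change -1.88, adjusted p = 1.41e-07). Of 24 chromatin and lamina genes, 11 fell and 4 rose, Hmgb2, a chromatin protein of cycling cells, leading the falls with -2.08 on the log2 scale.

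CCAAT, the site of NFY, was present in 23 of 30 windows of mitotic genes, in 41.2% of windows of genes at least 2-fold lower, in 34.3% of those at least 2-fold higher and in 37.8% of all windows. TTTGAA, the cell cycle homology region, was present in 24 of the mitotic windows against 11.6% of all, and in 17.98% and 11.5% of the lower and higher genes. With the 250 bases before the start alone, the mitotic number was 11. TTCCCGCC, a site of E2F factors, stood in 0 mitotic windows and in 3.85% of all. For 4 of the genes described, chosen among those with a match, the 120 bases before the start follow with CCAAT (reverse ATTGG) and TTTGAA (reverse TTCAAA) in capitals (5′ to 3′, GRCm38.p6, RefSeq). They lie at chr11:99024190-99024309 (minus strand), chr1:189688087-189688206 (minus), chr9:61946800-61946919 (minus) and chr8:57511723-57511842 (plus).
Top2a: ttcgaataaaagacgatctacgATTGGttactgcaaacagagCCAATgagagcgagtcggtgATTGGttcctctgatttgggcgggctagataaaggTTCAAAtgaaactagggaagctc
Cenpf: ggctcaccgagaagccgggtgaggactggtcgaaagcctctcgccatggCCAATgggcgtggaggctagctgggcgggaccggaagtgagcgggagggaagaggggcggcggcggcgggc
Kif23: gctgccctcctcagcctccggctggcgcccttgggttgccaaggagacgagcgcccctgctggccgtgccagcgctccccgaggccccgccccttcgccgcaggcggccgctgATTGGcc
Hmgb2: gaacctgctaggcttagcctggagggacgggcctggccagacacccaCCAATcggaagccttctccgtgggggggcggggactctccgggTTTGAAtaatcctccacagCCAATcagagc

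Markers of cells outside the neural retina were examined in the same way, since whole organoids were sequenced. Of 9 tested pigment epithelium genes (13 listed), 3 fell (Trpm3, Lrat and Dct) and 1 rose (Mitf), or 44.4% called beside 41.8% of all tested genes. The rises were 2 without D20 organoid 1 or D30 organoid 6 or by DESeq2, and 3 without a filter. The median log2 fold change was 1.07, and the sum, most of it Trpm3 and Dct, was 344, 383 and 459 CPM at D20 and 136, 206 and 268 CPM at D30. Dct, an enzyme of melanin synthesis, was at 118, 146 and 190.1 CPM at D20 and 9.99, 35.8 and 49.0 CPM at D30 (log2 fold change -2.35, adjusted p = 2.09e-07). Genes of cortex-type neurons (11 of 12 tested) varied widely between organoids of a day, with 1 rise and 1 fall. Their sums were 50.5, 110.3 and 290.0 CPM at D20 and 15.3, 277 and 385 CPM at D30. Neurod6 had the highest CPM. The study also places this gene in postmitotic amacrine cells, and what part of the sum these cells carry was not tested. D30 organoid 6 had 15.3 CPM of the cortex-type genes, the lowest of the 12 organoids. The rise was that of Emx2, a factor of the forebrain, at 0.470, 1.32 and 5.83 CPM at D20 and 2.49, 7.71 and 16.4 CPM at D30 (adjusted p = 0.0076). It did not pass when D20 organoid 1, 2, 3, 4 or 5 or D30 organoid 1, 2, 4 or 5 was left out, or with annotated genes alone in the fit (adjusted p = 0.0104 to 0.0259), so that the list then held 0 rises. Fezf2, a factor of deep-layer cortical neurons, fell by 1.78 on the log2 scale. Oligodendrocyte genes (7 of 12 tested) rose in 4 cases (2 without D30 organoid 1) and fell in 2 (Cnp and Mbp). The falls were 1 without D20 organoid 1, D20 organoid 2, D20 organoid 4, D30 organoid 3, D30 organoid 4, D30 organoid 5 or D30 organoid 6, and 1 by DESeq2. Their sums were 62.1, 70.1 and 75.4 CPM at D20 and 62.2, 126 and 282 CPM at D30, and Pdgfra, also a marker of astrocyte precursors and mesenchyme, had the highest CPM (medians without it 58.3 CPM at D20 and 48.3 CPM at D30). Sox10, a defining factor of the lineage, was at 0, 0.0356 and 0.330 CPM at D20 and 0, 1.85 and 7.82 CPM at D30 (log2 fold change 4.66, adjusted p = 0.000255, and 5.66 without D20 organoid 4), and D30 organoid 6 had none and 62.2 CPM of the list.

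Mesenchyme genes rose in 7 of 9 tested cases, with 3 of the 10 listed also in the collagen list. Their sums were 8.32, 15.9 and 28.7 CPM at D20 and 51.7, 99.8 and 276 CPM at D30, without overlap. The gene with the highest CPM, the fibrillar collagen Col3a1, went from 0.138, 0.523 and 5.59 CPM to 2.77, 22.3 and 107 CPM (log2 fold change 4.08, adjusted p = 0.000812, and 4.72 without D20 organoid 1 and 3.25 without D30 organoid 5), and decorin (Dcn) from 0, 1.10 and 1.96 CPM to 2.49, 8.52 and 33.4 CPM (log2 fold change 3.79, adjusted p = 0.000428). Endothelium and pericyte genes (6 of 11 tested) rose in 3 cases and fell in 2, with a median of 1.43 and sums of 269, 283 and 356 CPM at D20 and 177, 206 and 242 CPM at D30, most of it Kdr, which neural progenitors also express (medians without it 14.5 CPM at D20 and 29.8 CPM at D30). Tie1 was at 0 in all 12 organoids, Cdh5, Emcn and Kcnj8 were at 0 at D20, and the junction protein Cldn5 fell from 1.72, 2.85 and 4.05 CPM to 0, 0 and 0.166 CPM. None of 11 microglia genes passed the filter. Trem2, Tyrobp and C1qb had no count in any of the 12 organoids, and the microglia sum was 0, 0.620 and 2.08 CPM at D20 and 0.166, 0.459 and 1.37 CPM at D30. None of 13 lens genes passed the filter (sums 0.140, 1.23 and 2.63 CPM at D20 and 1.39, 2.67 and 15.3 CPM at D30, Cryba1 with the highest CPM, Lim2 at 0). Of 10 genes of pluripotent cells, Klf4 and Pou5f1 were tested, of which Pou5f1 fell to a median of 0 CPM (adjusted p = 0.00169) but did not pass the filter with thinned counts, Utf1 was at 0 in all 12, and the sums were 1.60, 3.22 and 4.75 CPM at D20 and 1.27, 2.48 and 6.87 CPM at D30. The part of these cells in the changes of other groups was not tested.

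**Figure D4:**
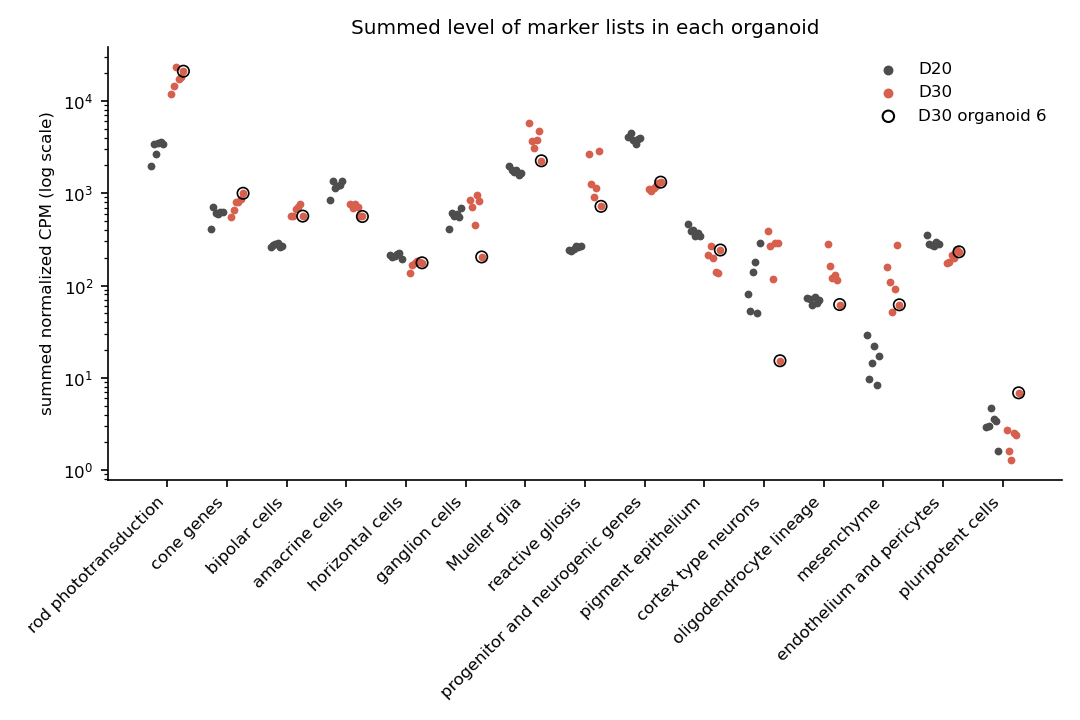
Summed normalized CPM (log axis) of 15 marker lists in each of the 6 organoids of D20 (grey) and D30 (red), with D30 organoid 6 circled. Rod and mesenchyme sums are higher in every D30 organoid than in any D20 organoid, and organoid 6 lies lowest of its day for the amacrine, ganglion cell, Müller glia, gliosis, cortex and oligodendrocyte lists.

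Cytosolic ribosomal protein genes fell nearly throughout, with 75 of 84 tested members lower, 0 higher and a median log2 fold change of -1.14. This direction was the same under each scaling (-1.23 with annotated genes alone, -1.07 with the size factors of DESeq2). Their summed level went from 24189, 29736 and 31085 CPM to 10345, 11981 and 14299.9 CPM, with every D30 organoid below every D20 organoid. Rpl5, the member with the highest CPM, was at 1819.6, 2007 and 2264 CPM at D20 and 556, 590.1 and 704 CPM at D30 (log2 fold change -1.74 ± 0.14, adjusted p = 3.67e-11). Mitochondrial ribosomal protein genes showed 4 rises (7 without D20 organoid 2) and 9 falls among 77, but 9 rises and 6 falls with the size factors of DESeq2 and 14 falls with annotated genes alone, and their median of 0.02 became -0.07 with annotated genes alone in the fit. Nuclear genes of oxidative phosphorylation rose in 39 of 80 cases, by small amounts (median 0.39), and fell in 2 (Ndufa6 and Cox7a2l). The ATP synthase subunit Atp5a1 was at 496, 524 and 566 CPM at D20 and 648, 714 and 771 CPM at D30 (log2 fold change 0.42 ± 0.07, adjusted p = 6.14e-06), and Ndufa4, of the respiratory chain, rose by 1.45. Of 26 glycolysis and hypoxia genes, 7 rose and 9 fell. Hexokinase 1 (Hk1), which starts glycolysis, was measured at 122.6, 136 and 156 CPM at D20 and 483, 662 and 723 CPM at D30 (log2 fold change 2.19 ± 0.10, adjusted p = 6.97e-16), and Pdk1, which limits entry of pyruvate into mitochondria, at 199, 213 and 267 CPM at D20 and 44.8, 94.9 and 139 CPM at D30 (log2 fold change -1.21, adjusted p = 1.06e-05). Pkm, a pyruvate kinase and the member with the highest CPM, was at 1206, 1419.6 and 1707 CPM at D20 and 1025, 1233 and 1513 CPM at D30 and did not pass (adjusted p = 0.147).

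Interferon response and antigen presentation genes rose in 9 of 12 tested cases (20 listed) and fell in 0, with a median log2 fold change of 2.14. Without a filter on low counts, 10 of 20 rose and 0 fell, with a median of 1.68. Ifit3, an interferon-induced gene, went from 0, 0.0694 and 0.202 CPM to 1.62, 3.58 and 4.51 CPM (log2 fold change 5.49, adjusted p = 5.73e-07, and 6.12 without D20 organoid 2), and H2-D1, a class I histocompatibility gene and the member with the highest CPM, from 19.7, 21.5 and 25.0 CPM to 35.9, 59.7 and 72.7 CPM (log2 fold change 1.38, adjusted p = 4.07e-08), each without overlap. Metallothionein and antioxidant genes rose in 11 of 16 cases and fell in 0. Mt3, the metallothionein of neural tissue, was at 0, 0 and 1.12 CPM at D20 and 2.22, 11.4 and 27.0 CPM at D30 (log2 fold change 5.45, adjusted p = 1.58e-06, and 6.56 without D20 organoid 4), and Prdx6, a peroxiredoxin, at 109, 145 and 163 CPM at D20 and 150.3, 302 and 602 CPM at D30 with overlap. Of 19 genes of the unfolded protein and amino acid responses, 8 rose (6 with annotated genes alone) and 1 fell (Shmt2). This made 47.4% called beside 41.8% of all tested genes, with a median log2 fold change of 0.30. Slc7a11, a cystine transporter, rose by 2.65 on the log2 scale. Of 19 tested cell death genes, 13 did not pass, 4 were higher (Bmf, Xiap, Hrk and Bcl2) and 2 lower (Bbc3 and Bcl2l11), or 4 without D30 organoid 1, and 6 lower with annotated genes alone. Their median of -0.02 became 0.04 with the size factors of DESeq2. Xiap, an inhibitor of caspases, was at 85.0, 122.8 and 143 CPM at D20 and 246, 281 and 368 CPM at D30 (log2 fold change 1.27, adjusted p = 1.1e-09). Among 16 immediate early genes, 4 rose (2 without D30 organoid 1) and 4 fell (2 without D20 organoid 3, D20 organoid 4, D30 organoid 2 or D30 organoid 3, and 2 by DESeq2). Btg2, which restrains division and is also in the progenitor list, fell by 1.72 on the log2 scale. Of 20 cholesterol genes, 3 fell, or 5 with annotated genes alone, and 2 rose, or 1 without D20 organoid 1, D20 organoid 3, D20 organoid 4, D20 organoid 5, D30 organoid 4, D30 organoid 5 or D30 organoid 6. D30 organoid 6 had the lowest summed cholesterol level of all 12 organoids, at 748 CPM.

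Channels set the excitability of neurons, and receptors carry signals across their synapses. In each of 4 lists of such genes, the share that rose lay above the 25.1% of all genes. The numbers of rises and falls were 35 and 8 (5 without a filter or with D20 and D30 only) among 64 potassium channel genes, 18 and 1 (2 without D30 organoid 4, 3 with annotated genes alone) among 37 genes of sodium, calcium and HCN channels, 15 and 1 among 22 glutamate receptor genes, and 16 and 1 among 21 GABA and glycine receptor genes. The inward rectifier Kcnj14 was at 0.0672, 0.389 and 0.711 CPM at D20 and 27.7, 41.5 and 68.2 CPM at D30 (log2 fold change 6.75, adjusted p = 3.43e-15), and the calcium channel beta subunit Cacnb2 at 10.8, 16.2 and 22.1 CPM at D20 and 128, 181 and 212 CPM at D30 (log2 fold change 3.44, adjusted p = 3.94e-15). The sodium channel gene Scn7a stood at 0, 0 and 0.138 CPM at D20 and 15.8, 25.0 and 33.9 CPM at D30 (log2 fold change 8.87, adjusted p = 2.24e-14, and 9.47 without D20 organoid 3 and 9.46 without D20 organoid 4). Gabrr1, a GABA receptor subunit of bipolar neurons, was at 0, 0 and 0.134 CPM at D20 and 4.97, 9.87 and 18.01 CPM at D30 (log2 fold change 7.73, adjusted p = 8.44e-12, and 8.32 without D20 organoid 2 and 8.32 without D20 organoid 4). These were separate between the days. Kcne2, the potassium channel gene with the highest CPM, fell from 257, 324 and 412 CPM to 26.7, 54.7 and 87.1 CPM (log2 fold change -2.47, adjusted p = 5.45e-08). Grin2a, an NMDA receptor subunit, was at 0, 0.488 and 1.54 CPM at D20 and 3.33, 23.4 and 40.9 CPM at D30 (log2 fold change 5.05, adjusted p = 6.27e-07), and Gabra5 at 0, 0.453 and 2.37 CPM at D20 and 0, 12.5 and 21.3 CPM at D30, with overlap and D30 organoid 6 at 0. That organoid also had the lowest D30 sum of glutamate receptor genes, at 473 CPM against 1051 to 1824 CPM.

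Axon guidance genes moved in both directions, with 13 rises and 16 falls among 63, a share called near that of all tested genes. The ephrin receptor Epha8 was at 102, 119.98 and 136 CPM at D20 and 3.36, 4.12 and 7.38 CPM at D30 (log2 fold change -4.69 ± 0.24, adjusted p = 3.04e-15), and the netrin receptor Unc5d at 0.280, 2.11 and 8.71 CPM at D20 and 22.7, 28.8 and 50.1 CPM at D30 (log2 fold change 3.41, adjusted p = 3.46e-08, and 4.11 without D20 organoid 4). Collagen and laminin genes rose in 18 of 44 tested cases (55 listed) and fell in 3, or 5 without D30 organoid 6. This made 47.7% called beside 41.8% of all tested genes. Col9a1, a collagen of the eye and cartilage, went from 15.7, 22.9 and 37.2 CPM to 120.2, 135 and 168 CPM (log2 fold change 2.58, adjusted p = 1.15e-10). Cadherin genes rose in 25 of 84 cases, a share near that of all tested genes, and fell in 1 (Cdh4), or 5 with annotated genes alone. Pcdh15, a protocadherin of photoreceptors and hair cells, was at 3.78, 12.1 and 14.98 CPM at D20 and 95.4, 129 and 153 CPM at D30 (log2 fold change 3.59, adjusted p = 1.21e-09). The protocadherin clusters share exons between genes, and their single members are uncertain. Of 31 genes of intraflagellar transport and axonemal motors, 20 rose and 2 fell (Ift52 and Dnah8), or 1 with the size factors of DESeq2. Dynlrb2, a dynein light chain of motile cilia, was at 0.198, 0.370 and 0.481 CPM at D20 and 3.44, 4.10 and 5.82 CPM at D30 (log2 fold change 3.59, adjusted p = 6.53e-10), and Dync2h1, the motor of intraflagellar transport, at 154, 178 and 197 CPM at D20 and 204, 230.4 and 281 CPM at D30 (log2 fold change 0.43, adjusted p = 0.000175), each separate between the days.

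Imprinted genes fell in 10 of 18 cases and rose in 3 (Mest, Snrpn and Ndn). The noncoding H19 was at 392, 492 and 742 CPM at D20 and 42.9, 82.6 and 169 CPM at D30 (log2 fold change -2.56, adjusted p = 1e-07), and the zinc finger gene Plagl1 at 97.6, 131 and 214 CPM at D20 and 15.99, 19.4 and 23.7 CPM at D30 (log2 fold change -2.82 ± 0.16, adjusted p = 1.86e-14). Among 13 long noncoding RNAs, 3 rose and 4 fell. Miat, an RNA of neural progenitors and neurons, went from 694, 863 and 929 CPM to 76.9, 151 and 201 CPM (log2 fold change -2.54 ± 0.16, adjusted p = 2.17e-13), and Mir124a-1hg, which hosts a microRNA of neurons, rose by 1.46 on the log2 scale. Malat1 alone held 5.37% of the reads on annotated genes at D20 and 3.92% at D30 (medians, exact permutation p = 0.00216, the smallest that the arrangements of 6 and 6 organoids can give, and 0.00325 adjusted over 6 shares). Small RNAs of the nucleus and nucleolus, which libraries of total RNA can hold, fell, with 60 of 78 tested snRNA genes lower and 0 higher, and 59 of 119 tested snoRNA genes lower and 0 higher (1 at an unadjusted p below 0.05). Protein coding genes took 86.7% of these reads at D20 and 90.6% at D30 (exact permutation p = 0.00216). Of 17 circadian clock genes, 8 rose and 0 fell, or 47.1% called beside 41.8% of all tested genes (median log2 fold change 0.39). Bhlhe41, a repressor of the clock, was at 12.4, 22.0 and 29.2 CPM at D20 and 47.7, 67.6 and 85.2 CPM at D30 (log2 fold change 1.63, adjusted p = 1.18e-07). Neural splicing genes showed 4 rises and 5 falls among 21, a share called near that of all tested genes (2 falls with the size factors of DESeq2), and their median of -0.01 became 0.06 with the size factors of DESeq2. The rises were 2 without D20 organoid 1, D20 organoid 2, D20 organoid 3 or D30 organoid 1 and 7 without D30 organoid 6, and the falls 3 without D20 organoid 1, D20 organoid 2, D20 organoid 3, D20 organoid 6, D30 organoid 1, D30 organoid 2 or D30 organoid 3. Ptbp1, a repressor of neuronal exons, fell by 0.76, and Rbfox1, a splicing factor of neurons, rose by 1.88 on the log2 scale.

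Some of the 15 largest rises and 15 largest falls without overlap belong to no list. Pdzph1 rose from 0, 0.207 and 0.448 CPM to 35.8, 48.4 and 58.7 CPM (log2 fold change 7.77 ± 0.43, adjusted p = 7.69e-15), and Lad1, ladinin of basement membranes, from 0.0688, 0.163 and 0.264 CPM to 11.6, 21.4 and 33.4 CPM (log2 fold change 7.05, adjusted p = 6.49e-13). The unnamed gene 5430419D17Rik had 1 count at D20 and 3522 at D30, a ratio of 3150.2 (95% counting interval 565 to 124459). Mybpc1, a myosin-binding protein, led the falls, from 12.9, 27.8 and 44.6 CPM to 0, 0 and 0.619 CPM (log2 fold change -7.61 ± 0.63, adjusted p = 5.41e-11, and -8.96 without D30 organoid 4). Arhgef37 fell from 39.9, 46.7 and 74.6 CPM to 1.16, 2.05 and 2.63 CPM (log2 fold change -4.73 ± 0.23, adjusted p = 9.96e-16) and Crabp2, which carries retinoic acid, from 124, 171 and 221 CPM to 6.40, 9.11 and 12.4 CPM (log2 fold change -4.21 ± 0.29, adjusted p = 8.95e-13). The kinase gene Nuak2 fell by 3.66 and Slc6a2, the noradrenaline transporter, by 3.61 on the log2 scale. For each of these genes the D20 and D30 organoids were fully separate.

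Levels of different genes were compared per length, as mean CPM per kilobase of exon. At D20 the highest protein coding genes were the chaperone Hsp90ab1 (1016), the elongation factor Eef1a1 (896) and the ribosomal proteins Rps3a1 (856) and Rpl32 (754), genes with processed copies in the genome and therefore uncertain. At D30 phosducin led with 1435 CPM per kilobase, up from 485. Among the 10 highest at D30, of which not all are given here, Apoe stood at 527, Sag at 521, Gngt1 at 483 and Rcvrn at 466. Their levels at D20 were 78.1, 52.6, 64.8 and 2.78. Hsp90ab1 fell to 535 and Eef1a1 to 391. Calmodulin 2 (Calm2) and the ribosomal protein Rplp1 were among the 10 highest on both days.

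The ends of the interval do not show what lay between them, so the mean of D22 and D25 was set against the mean of D20 and D30 in the same fit. D22 and D25 lie earlier on average than D20 and D30. A steady fall on the log2 scale therefore counts as higher in this contrast and a steady rise as lower. How many of the genes that passed changed steadily was not tested. By this contrast 731 of 16253 annotated genes passed (4.5%), 372 higher and 359 lower inside the interval (635 lower without D30 organoid 6, 628 higher and 343 lower with annotated genes alone, and 398 higher and 686 lower by DESeq2), and 247 of them did not pass the comparison of D30 with D20. Tfap2b, a transcription factor of amacrine and horizontal cells, was 1 of these. Its medians were 34.0, 68.9, 121 and 32.5 CPM at D20, D22, D25 and D30 (log2 difference 1.66 ± 0.22, adjusted p = 9.08e-06). Arhgap31, a GTPase-activating protein, had medians of 4.85, 27.6, 35.9 and 10.6 CPM (2.03 ± 0.25, adjusted p = 3.98e-06), and Col17a1, a transmembrane collagen, 10.1, 22.3, 13.0 and 2.72 CPM (1.67 ± 0.20, adjusted p = 3.12e-06). These 3 genes peaked at D22 or D25. Epha8 had medians of 119.98, 105, 41.9 and 4.12 CPM (1.56 ± 0.15, adjusted p = 1.16e-07), with its lowest level at D30. Abca8a, a transporter of Müller glia, had medians of 0.783, 0.353, 1.57 and 21.3 CPM (-2.22 ± 0.30, adjusted p = 2.16e-05). The glial adhesion protein Hepacam stood at 0.593, 0.175, 1.21 and 10.3 CPM, the neuronal kinase Camk2a at 1.25, 0.406, 4.55 and 41.3 CPM, and Gng4, a G protein gamma subunit, at 0.375, 0.238, 0.819 and 14.3 CPM. In these genes the highest median stood at D30. D30 organoid 6 lay within the D20 range for Hepacam, Gng4, Camk2a and Serpinf1, a secreted factor of pigment epithelium and glia. The contrast of Gng4 did not pass without D20 organoid 4. That of Camk2a did not pass without D20 organoid 4 or 6 or D30 organoid 5, nor that of Serpinf1 without D20 organoid 3, 4 or 6 or D30 organoid 5 (adjusted p = 0.0111 to 0.0292 for the 3 genes). Which day within the interval carried each change was not tested here.

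**Figure D5:**
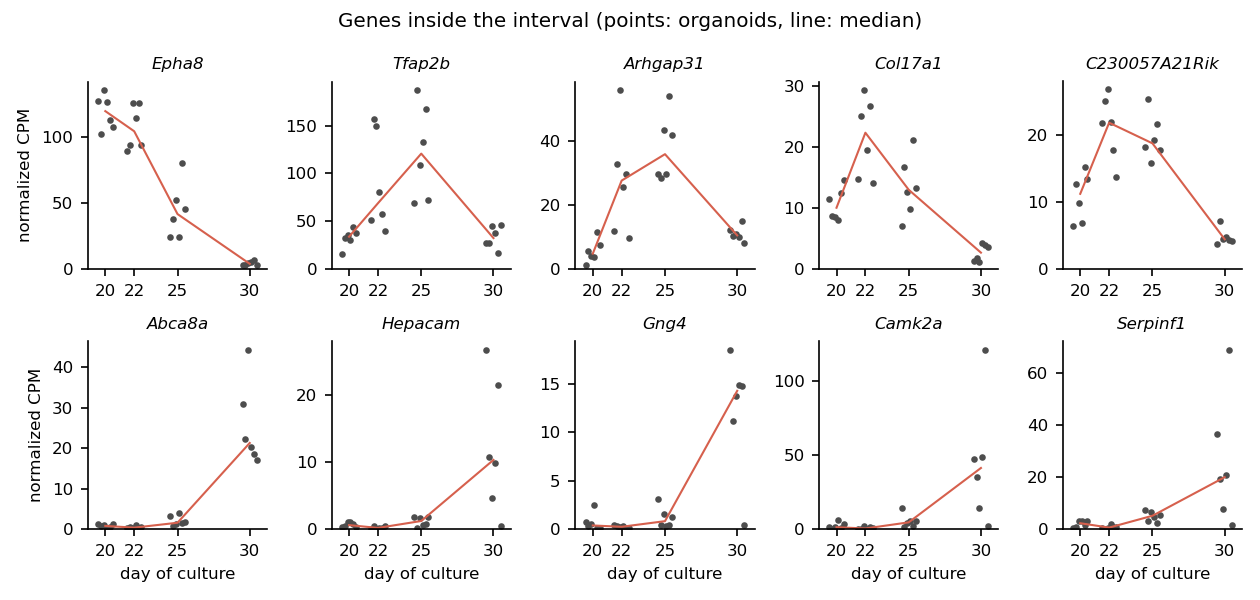
Normalized CPM of 10 genes against the day of culture (20, 22, 25 and 30), with points for the 6 organoids of each day and lines through the medians. The upper row holds the genes with the highest values of the contrast of D22 and D25 with D20 and D30. Epha8 is among them, although its median fell from day to day. The lower row holds the genes with the lowest values, whose medians are highest at D30.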

How the data were processed

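Counts per feature were taken as the authors deposited them, for annotated genes and for loci assembled from the reads. By the submitters' processing notes, bcl2fastq 2.20, cutadapt 1.5, FastQC 0.11.2, HISAT2, SAMtools 1.1, StringTie 1.3.3 and HTSeq 0.6.1 had made them on GRCm38. The 46949 features whose normalized counts averaged at least 10 over the 24 organoids were fitted together by day (edgeR 4.0.16, quasi-likelihood test, TMM normalization), with limma 3.58.1 and R 4.3.3. Benjamini-Hochberg adjustment ran over all 46949 features, and genes with an adjusted p below 0.01 were called higher or lower. CPM are scaled by the TMM-adjusted library size. DESeq2 1.42.0 served as an alternative. Other alternatives were its size factors in edgeR, annotated genes alone, 2 other filters on low counts, D20 and D30 only, the replicate number as a block, thinned counts, a 2-fold minimum, an adjusted p of 0.05, and each of the 12 organoids left out. Shares of reads were compared by a two-sided exact permutation test over all arrangements of 6 and 6, adjusted over 6 shares. Figures and tables used Python 3.11.15, pandas 2.3.3, SciPy 1.17.1 and matplotlib 3.10.9, and the steps were tested on simulated data. There, every feature had the same spread (biological coefficient of variation 0.385) and few genes changed, unlike in the data. In that setting, 10.2% of 98 tested genes with a 2-fold change and 91.8% of 98 with a 4-fold change were recovered. These shares do not give the recovery in the comparison of D30 with D20, which was not measured. A gene that did not pass may still have changed.

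The members and the 51 lists were chosen with earlier results of these data known. Genes are named by a rule: the 15 largest rises and 15 largest falls among called genes without overlap whose normalized counts averaged at least 100 over the 12 organoids, in each list the 3 called members with the largest absolute log2 fold change and the member with the highest CPM, the 10 protein coding genes with the highest level per length on each day, and the 5 highest and 5 lowest called values of the contrast inside the interval with the same count minimum. Of the genes under this rule, 124 are given with values. List members named beyond it, without values or with counts alone, were chosen after their values were seen. Some genes a rule or list would include are not reported here. List medians did not change when genes with 3 or fewer counts on a day were set to the bound that 3 counts allow. Only the rod phototransduction, reactive gliosis and potassium channel lists held such a gene, 1 each. The check could therefore hardly have moved a median. The mitochondrial genome was left out, since it holds no counts. No test was run over a list as a whole.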

Additional observations from a re-analysis of the deposited data

Results flagged for a closer look

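Within each day, the highest or lowest organoid of a gene or list sum was marked when its gap to the nearest organoid, divided by the range of the 6, lay above the 95% critical value of Dixon's test for 6 values. Of 298 groups of 6 tested, 38 held such an organoid (12.8%), and chance alone marks about 1 in 20. Genes near 0 were among them, so that a single count can mark an organoid. Values below are normalized CPM. At D20, organoid 1 had 9 such values, more than the others of the 12 organoids. It had the highest value for Gucy2f (0.0699), Foxn4 (45.4), Igf2bp1 (106), Pdk1 (267), Hsp90ab1 (3796), the summed endothelium and pericyte genes (356) and the summed collagen and laminin genes (741), and the lowest for Syp (166) and Mir124a-1hg (238).

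D20 organoid 2 had the highest value for Cabp5 (4.03) and Ifit3 (0.202). In D20 organoid 3, the highest value was that of Grm6 (0.275). D20 organoid 4 had the highest value for Gad1 (31.5), Unc5d (8.71) and Gng4 (2.51). The genes of these organoids came from several lists, and most of them had a low level at D20. In D20 organoid 6, the highest values were those of 5430419D17Rik (0.0640), Mef2c (56.8), Thy1 (5.31) and Emx2 (5.83).

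D30 organoid 1 had the highest value for Kif23 (17.9), Hmgb2 (25.2), Slc7a11 (59.6) and the summed lens genes (15.3), and the lowest for the summed horizontal cell genes (136). In D30 organoid 2, the highest value was that of C230057A21Rik (7.22). D30 organoid 3 had the highest value for Gucy2f (73.8), Fgf15 (3.30), Lin28a (16.7) and Unc5d (50.1). None of these organoids was marked for its mean distance to the rest of its day. In D30 organoid 4, the highest values were those of Mybpc1 (0.619), Igf2bp3 (10.2) and H19 (169). D30 organoid 5 had the highest value for Fezf2 (11.3) and Col3a1 (107). D30 organoid 6 had the highest value for Pou4f2 (1.11), Cldn5 (0.166) and the summed genes of pluripotent cells (6.87). It was also marked for its mean distance to the other organoids of its day, at 98.6 on the scale log2(CPM + 0.5).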

How the results depend on the processing

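The number of genes that passed (6790) was 7294 with the Wald test of DESeq2, 6857 with its size factors, 7311 with annotated genes alone, 6494 without a filter, 6073 with D20 and D30 only and 6297 to 6771 with 1 organoid left out. With the replicate number as a block it was 6657 (3983 higher and 2674 lower). Deviations from the mean of a day correlated between organoids of the same number by -0.206 to 0.168 over 6 pairs, and 1 of 6 correlated best with its own number. At least 2-fold changes left 3605 genes, 2324 higher and 1281 lower. For the mean of D22 and D25, 628 genes were higher with annotated genes alone (372 otherwise), and 686 lower with DESeq2 (359 with edgeR, 290 to 635 with 1 organoid left out, the latter without D30 organoid 6). This contrast could not be had from D20 and D30 only. Among 102 list counts, 25 moved by over 1.5 times under some alternative, 23 of them at most 5. The other 2 were the falls of mitochondrial ribosomal protein genes (9, and 14 with annotated genes alone) and of potassium channel genes (8, and 5 without a filter or with D20 and D30 only). Of 2471 log2 fold changes of 124 named genes, 2447 kept direction and side of the threshold, 17 no longer passed, 2 newly passed and 5 turned, with 0 among genes that had passed. Those that turned belong to Tfap2b, which did not pass (0.03): -0.034 with annotated genes alone and -0.11 to 0.17 with 1 organoid left out, below 0 without D20 organoid 1 or D30 organoid 3, 4 or 6. With the block, the contrasts of Camk2a and Serpinf1 inside the interval did not pass. Arhgap31 passed between D20 and D30 with the block and without D20 organoid 5. In the 250 bases before the start alone, TAATCC stood in 5.32%, TGCTGAC in 2.98%, CCAAT in 35.3%, TTTGAA in 10.3% and TTCCCGCC in 3.34% of all windows. CCAAT stood in 31.5% of windows of higher genes, and TTTGAA in 13.7% of lower and 36.7% of mitotic genes. This window is shorter, and for the other changes the cause was not tested.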

Other observations

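D30 organoid 6 had high levels of genes of the basement membrane, the sheet of collagen, laminin and nidogen under epithelia and around vessels. These genes were chosen after their values were seen. Col4a1 and Col4a2, the chains of collagen IV, stood at 343 and 237 CPM in this organoid, against 21.1 to 54.2 and 18.9 to 46.5 CPM in the other D30 organoids. The laminin chains Lama1, Lamb1 and Lamc1 stood at 257, 267 and 183 CPM, against at most 13.5, 37.9 and 50.1 CPM. Nidogen 1 (Nid1), which links laminin to collagen IV, had 62.5 CPM against 11.7 to 25.7 CPM. All of these were the highest values of D30. The summed collagen and laminin genes came to 1911 CPM in organoid 6 and 699 to 1166 CPM in the others. Gkn2, a gastrokine otherwise known from the stomach, had 84.3 CPM in organoid 6 and at most 0.0612 CPM in each of the other 11 organoids of both days. Whether 1 kind of tissue carried these genes was not tested.

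Besides annotated genes, the deposited counts hold loci that the authors assembled from the reads. Of 30696 such loci tested, 2425 were higher and 3377 lower at D30, and the median log2 fold change was -0.14. In the contrast of the mean of D22 and D25 with the ends of the interval, 412 loci were higher and 21 lower. The origin of these loci was not examined.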
